A study of Mus musculus with 27 samples.

Results

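The dystrophin-glycoprotein complex was followed through 8 of its genes in single myofibers of the mouse tibialis anterior. Members were all non-control probes that the array annotates to Dmd, Utrn, Dag1, Sgca, Sgcb, Sgcd, Dtna or Sspn. This gave 18 probes of 55681 on the array, which carry 35527 gene names. Of the 18, 14 gave a value on at least 75% of the arrays and were tested, and each of the 8 genes kept at least 1 tested probe. The untested probes were Dmd at transcript position 2086, with a value on 1 of 27 arrays, Dmd at 14850 on 6 arrays, Utrn at 163 on 3 arrays and Sgcd at 2988 on none.

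The complex links the actin cytoskeleton under the muscle membrane to laminin in the basal lamina. Dystrophin binds actin on the inside and dystroglycan at the membrane, dystroglycan carries the sugar chains that hold laminin, and the sarcoglycans and sarcospan form a subcomplex beside it. Its loss makes fibers fragile during contraction: mutations in dystrophin cause Duchenne muscular dystrophy, and mutations in single sarcoglycans cause limb-girdle dystrophies.

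The series holds 27 arrays, each of 1 myofiber. WT had 8 myofibers from 2 wild type mice, the Smn1deltaSKM group (Smn1ΔSkm) had 12 from 3 mice, and Smn1deltaSKM+AFS had 7 from 2 mice. All mice are labelled male and 3 months old, while the methods describe injection of the cells at that age and killing a month later for the treated mice. Smn1ΔSkm mice carry HSA-Cre and Smn F7/F7, a floxed Smn1 exon that the human skeletal actin promoter removes in myofibers, so that other cells of the muscle keep the gene. The treated mice have the same genotype and received amniotic fluid stem (AFS) cells, sorted for GFP and c-kit, through the tail vein. The WT myofibers are described both as coming from control littermates and as coming from C57BL/6 GFP+ mice. The study's text also gives other totals for the arrays, and for treated myofibers and mice, than the labels, which were followed here. A replicate here is a mouse, and the value of a mouse is the mean of those of its 3 or 4 myofibers that gave a value. Spots not found or not well above background gave none, so at dim probes some means rest on fewer myofibers. The p-values measure the spread between 7 mice.

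The arrays yielded 23183 to 37595 probes with a value, with medians of 25156 in WT, 31433.5 in Smn1ΔSkm and 27431 in Smn1ΔSkm + AFS. All WT arrays lay on 1 slide and were scanned on a day of their own, so that slide, scan day and genotype cannot be told apart in any comparison with WT. Of the other 19 arrays, 5 were scanned on the first day, namely myofibers 1 to 3 of Smn1ΔSkm mouse 1 and myofibers 2 and 3 of the first treated mouse. The targeted gene had 2 tested probes: one fell by 1.68 on the log2 scale in Smn1ΔSkm against WT (adjusted p = 0.02007) and the other differed by 0.19 (adjusted p = 0.7154). Where these probes lie relative to the floxed exon was not established here. Of 10 myofiber markers, 9 were measured on most arrays, and their summed linear signal, in multiples of the 75th percentile of an array, was 2210 to 3710 in WT, 1580 to 2670 in Smn1ΔSkm and 2280 to 2960 in treated myofibers. In Smn1ΔSkm against WT 3 of the 9 were called lower (Ckm, Myl1 and Ryr1) and 1 higher (Myh1), so that some myofiber markers fell along with the called members, and their part in the member values was not tested. The lists for other cell types were lower, with highest sums of 123 for fibroblast genes, 39.4 for immune, 26.2 for endothelial, 23.8 for satellite cell, 21.5 for smooth muscle and pericyte and 3.36 for Schwann cell genes, and the satellite cell marker Calcr had no value on any array. In Smn1ΔSkm against WT, 2 of 5 tested immune genes (Ptprc and Cd68) were called higher. Of 3 tested smooth muscle and pericyte genes 1 (Tagln) was called higher, and of 3 tested endothelial genes 1 (Vwf) lower. No tested fibroblast, satellite cell or Schwann cell marker was called. Over all tested probes 21.5% were called in this comparison. The summed immune signal was 23 to 35.7 in WT and 20.2 to 35.3 in Smn1ΔSkm.

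The probes are the sequences that were measured. Shown are the 3 tested Dmd probes, which gave unequal differences, the Sgcd pair, which gave nearly equal ones, Utrn 7910, with a higher mean in Smn1ΔSkm, and Sgca 1344, which was called lower. Each is a DNA oligo of 60 bases in the sense orientation, read from the array files, and the capitals mark the whole hybridising stretch. Positions after the gene name count bases from the start of the annotated transcript. In mm9, the Dmd probes lie on the plus strand at chrX:80596782-80596841, chrX:81132417-81132476 and chrX:82389391-82389450. The others lie on the minus strand, Utrn at chr10:12221228-12221287, Sgca at chr11:94824546-94824605 and Sgcd at chr11:46939058-46939117 and chr11:46794345-46794404.
Dmd 450: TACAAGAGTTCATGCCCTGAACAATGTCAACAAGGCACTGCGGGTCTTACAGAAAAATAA
Dmd 4942: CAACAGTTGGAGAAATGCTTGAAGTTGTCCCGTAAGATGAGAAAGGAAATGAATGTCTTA
Dmd 10335: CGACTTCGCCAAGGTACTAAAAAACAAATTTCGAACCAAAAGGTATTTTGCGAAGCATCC
Utrn 7910: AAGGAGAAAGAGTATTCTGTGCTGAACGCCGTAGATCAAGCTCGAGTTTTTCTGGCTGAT
Sgca 1344: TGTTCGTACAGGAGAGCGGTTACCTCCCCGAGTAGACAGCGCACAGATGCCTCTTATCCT
Sgcd 467: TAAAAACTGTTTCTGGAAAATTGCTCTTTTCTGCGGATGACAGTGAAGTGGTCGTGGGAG
Sgcd 653: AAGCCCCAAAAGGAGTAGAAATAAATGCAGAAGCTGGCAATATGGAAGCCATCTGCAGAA
Every one of these 7 sequences has at least 1 forward reading frame without a stop codon. Over all 18 member probes the GC content ran from 25% to 55%, and the highest was that of Sgca 1344. The probes of Dag1 at 4153, Sgca at 1404, Sgcb at 1076, 1141 and 2728, Dtna at 811 and Sspn at 4325 are named by position only.

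Values are given as the relative log2 signal: the log2 of the processed signal of a probe minus that of the 75th percentile of its array. A value of 0 is thus the brightness of the 75th percentile, and 1 unit is a doubling. Values of different probes depend on their sequences and are not compared with each other. A difference was called where limma gave an adjusted p under 0.05 over all 22169 tested probes.

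In Smn1ΔSkm myofibers, probes of dystroglycan, α-sarcoglycan, dystrobrevin α and, at 1 of its 3 probes, β-sarcoglycan were lower than in WT, and no member was called higher. With only the brightest probe for each gene, Sgcb was not called and 3 of 8 genes were, beside 22% of all genes. Of the 14 tested member probes 5 were called, all lower, and they belong to 4 genes. Over all tested probes 21.5% were called and 14.1% were called lower, against 35.7% of the member probes. Of the members 13 had a lower mean and 1 a higher mean in Smn1ΔSkm, and the median difference was -0.94 on the log2 scale, beside -0.14 over all tested probes. In 10 of the 14 probes all 3 Smn1ΔSkm mice lay below both WT mice, which was so for 33.9% of the 22000 probes with a value in every mouse. Without either WT mouse none of the 14 was called, nor any of the 22161 and 22107 probes then tested, and a lone WT mouse was then assumed to vary like the other groups. Without Smn1ΔSkm mouse 1, 8 were called (57.1%) beside 43.8% of all probes, and without mouse 2, 3 were (21.4%) beside 8.48%. When each array was centred on its median over the fully measured probes, the median of all probes moved up by 0.216 and 45% of the calls over all probes were lower, beside 65.8% here. Of the members 12 then still had a lower mean and 3 were called lower. The calls for Dag1, Sgcb 2728 and Dtna were present in all 16 other settings, besides the fits without a mouse.

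**Figure D1:**
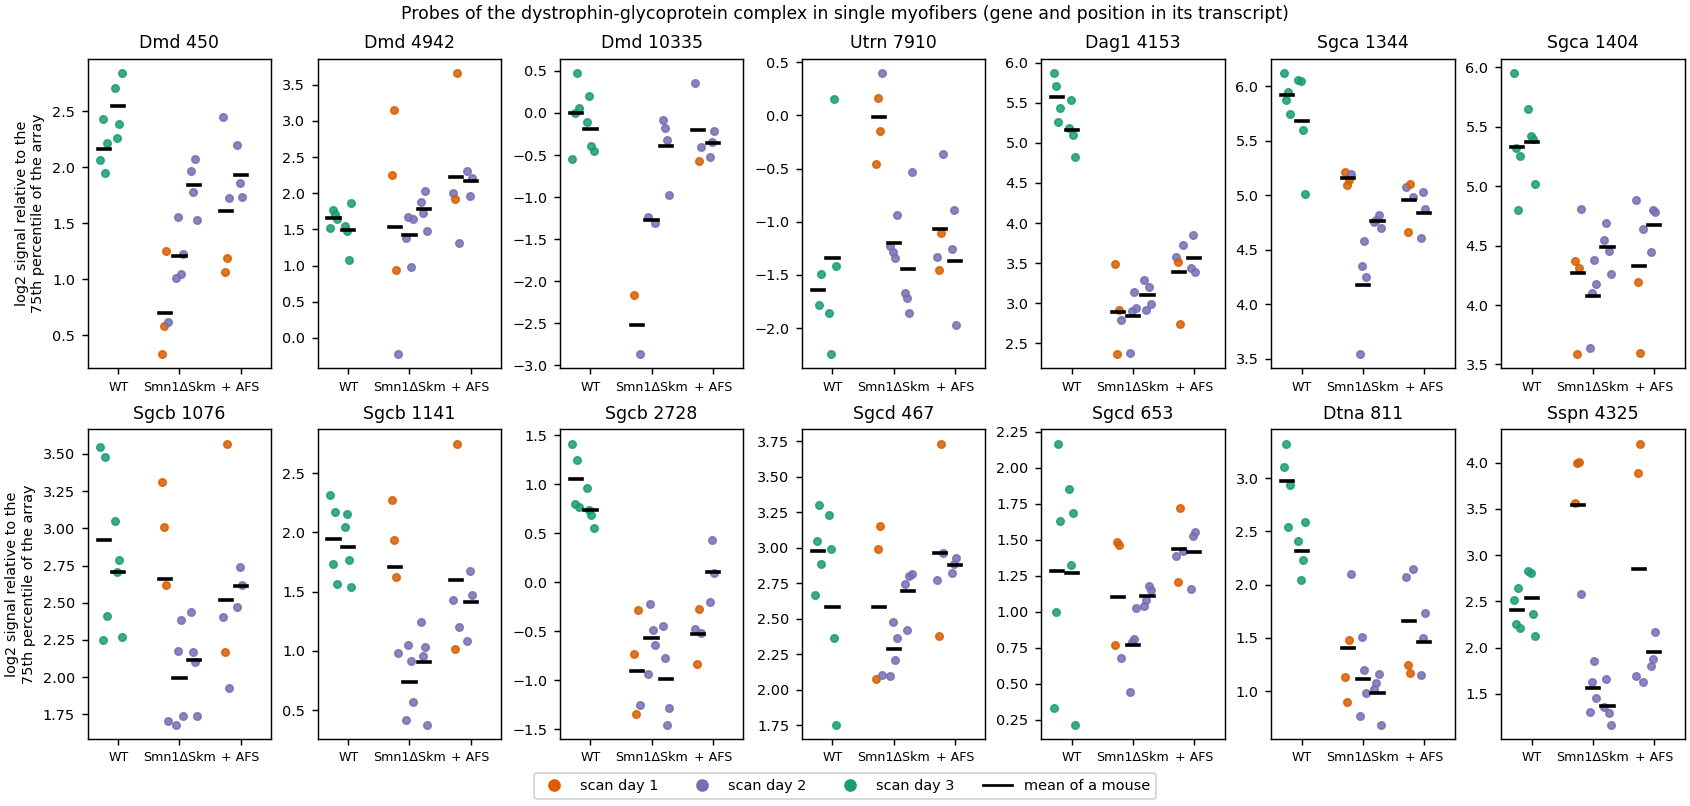
Relative log2 signal (vertical axis, log2 units) of each tested member probe in single myofibers of WT, Smn1ΔSkm and Smn1ΔSkm + AFS mice; points are myofibers coloured by scan day and short lines are means of a mouse. All 12 Smn1ΔSkm points of Dag1 4153 lie at or below 3.49, under the lowest WT myofiber at 4.82, and the Sspn 4325 points of the first scan day stand at or above 3.57.

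Dag1 encodes dystroglycan, the precursor of the α and β subunits that join laminin outside to dystrophin inside. Its probe at 4153 had a relative log2 signal of 4.82, 5.35 and 5.87 at the lowest, median and highest of 8 WT myofibers, 2.37, 2.93 and 3.49 in 12 Smn1ΔSkm myofibers, and 2.74, 3.52 and 3.85 in 7 Smn1ΔSkm + AFS myofibers. No Smn1ΔSkm or treated myofiber reached the lowest WT myofiber. The means of the mice were 5.570 and 5.160 in WT, 2.892, 2.844 and 3.104 in Smn1ΔSkm, and 3.390 and 3.562 with AFS cells. Dag1 thus fell by 2.42 (SE 0.27) on the log2 scale in Smn1ΔSkm against WT, a signal 5.35-fold lower, with an adjusted p of 0.006629, the lowest among the members. In the treated mice it differed from WT by -1.89 (SE 0.296) log2 units, 3.70-fold lower, with an adjusted p of 0.01878. Dag1 was the only member called in that comparison, in which 7.33% of all probes were called. Treated and untreated mice differed by 0.53 (SE 0.27, adjusted p = 0.9999), with both treated mice above the 3 untreated ones and 4 of 7 treated myofibers above the brightest untreated myofiber.

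Sgca and Sgcb encode single-pass transmembrane sarcoglycans, of which α-sarcoglycan is largely restricted to striated muscle. Sgca was read by a probe at 1344 and one at 1404 of another annotated transcript, and they gave nearly the same change. At 1344 the WT myofibers had 5.02, 5.91 and 6.12, the Smn1ΔSkm myofibers 3.54, 4.76 and 5.22, and the treated ones 4.61, 4.98 and 5.10 (lowest, median and highest). The signal at 1404 was 4.80, 5.36 and 5.95 in WT, 3.59, 4.34 and 4.80 in Smn1ΔSkm, and 3.59, 4.64 and 4.88 with AFS cells. At 1404, 11 of 12 Smn1ΔSkm myofibers lay below the lowest WT myofiber, and at 1344 this held for 8 of 12. Sgca fell by 1.10 (SE 0.333, adjusted p = 0.04787) at 1344 and by 1.08 (SE 0.272, adjusted p = 0.02908) at 1404, a signal 2.15-fold and 2.11-fold lower. Calls for both probes are close to the threshold, and each was lost in 7 of 16 other settings, in which the adjusted p reached 0.1197 at 1344 and 0.1242 at 1404.

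Sgcb had 3 tested probes on 1 transcript, at 1076, 1141 and 2728. The farthest, at 2728, read 0.55, 0.78 and 1.42 in WT, -1.45, -0.75 and -0.22 in Smn1ΔSkm, and -0.83, -0.27 and 0.44 with AFS cells (lowest, median and highest). None of the 12 Smn1ΔSkm and 7 treated myofibers reached the lowest WT myofiber at this probe. It fell by 1.72 (SE 0.306) on the log2 scale in Smn1ΔSkm, 3.29-fold lower, with an adjusted p of 0.01254. The probes at 1076 and 1141 differed by -0.56 and -0.80 in log2 units, with adjusted p-values of 0.197 and 0.1191. Their myofibers overlapped with WT, while the means of all Smn1ΔSkm mice lay below those of both WT mice at each probe. At 1076 the medians were 2.75 in WT, 2.17 in Smn1ΔSkm and 2.47 in treated myofibers, and at 1141 they were 1.90, 1.01 and 1.43. In Smn1ΔSkm mouse 1 these probes read high, with means of 2.66 and 1.71 beside 1.99 and 0.74 in mouse 2 and 2.11 and 0.90 in mouse 3. Without the 5 myofibers of the first scan day, an alternative chosen after seeing the data, both were called lower in Smn1ΔSkm, with a difference of -0.88 (adjusted p = 0.04022) at Sgcb 1076 and -1.04 (adjusted p = 0.0154) at Sgcb 1141.

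Sgcd encodes δ-sarcoglycan, another single-pass protein of the subcomplex, and its 2 tested probes showed no called difference. The relative log2 signal at 467 was 1.76, 2.94 and 3.30 in WT, 2.08, 2.45 and 3.15 in Smn1ΔSkm, and 2.38, 2.89 and 3.73 with AFS cells. At 653 it was 0.22, 1.48 and 2.17 in WT, 0.44, 1.03 and 1.48 in Smn1ΔSkm, and 1.16, 1.42 and 1.72 with AFS cells. The myofibers of the groups overlapped widely, and no Smn1ΔSkm myofiber left the WT range downward at either probe. At 653 the means of the Smn1ΔSkm mice, 1.10, 0.77 and 1.11, all lay below those of the WT mice, 1.28 and 1.27. The differences between Smn1ΔSkm and WT were -0.26 (95% interval -0.89 to 0.37) and -0.28 (95% interval -0.87 to 0.31) in log2 units, so that a fall of the size seen at Dag1 lies outside both intervals.

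Dtna encodes dystrobrevin α, a cytoplasmic protein related to dystrophin that binds syntrophins. Its probe at 811 read 2.04, 2.56 and 3.32 in WT, 0.69, 1.11 and 2.10 in Smn1ΔSkm, and 1.157, 1.498 and 2.150 with AFS cells (lowest, median and highest). In 11 of 12 Smn1ΔSkm myofibers the signal was below the lowest WT myofiber. Dtna fell by 1.48 (SE 0.303) on the log2 scale in Smn1ΔSkm, 2.79-fold lower, with an adjusted p of 0.01673. The treated mice differed from WT by -1.09 (SE 0.332), which did not pass (adjusted p = 0.07822).

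Dmd encodes dystrophin, the actin-binding rod of the complex, and its 3 tested probes gave unequal differences. The probe at 450, in the 5′ part of the long transcript, read 1.95, 2.32 and 2.84 in WT, 0.33, 1.23 and 2.07 in Smn1ΔSkm, and 1.07, 1.74 and 2.45 with AFS cells. At 4942 the values were 1.076, 1.596 and 1.862 in WT, -0.22, 1.65 and 3.16 in Smn1ΔSkm, and 1.31, 2.00 and 3.66 with AFS cells. The probe at 10335 was measured on 8 of 8 WT, 8 of 12 Smn1ΔSkm and 6 of 7 treated arrays, with medians of -0.05, -1.11 and -0.37. At 450, 10 of 12 Smn1ΔSkm myofibers lay below the lowest WT myofiber, while at 4942 they spread to both sides of WT, 3 below and 4 above its range.

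None of the 3 Dmd probes was called in Smn1ΔSkm against WT. The difference was -1.11 (SE 0.37, adjusted p = 0.06296) at 450, 0.00 (SE 0.26, adjusted p = 0.9995) at 4942 and -1.30 (SE 0.537, adjusted p = 0.1116) at 10335, in log2 units. At 450 and 10335 all 3 Smn1ΔSkm mice lay below both WT mice, with means at 450 of 0.69, 1.21 and 1.84 against 2.16 and 2.55. The signal at 450 passed the threshold in 7 of 16 other settings, among them without the 5 myofibers of the first scan day (-1.13, adjusted p = 0.04328). In Smn1ΔSkm mouse 1 the 3 first-day myofibers had a mean of 2.12 at 4942 and the remaining one read -0.22, while over all Smn1ΔSkm and treated myofibers the scan days overlapped at this probe. Without the first-day myofibers the difference at 4942 was -0.59 (adjusted p = 0.4129), and its sign turned with the scaling, to 0.22 under that centring.

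Utrn encodes utrophin, the autosomal relative of dystrophin that is concentrated at the neuromuscular junction in adult fibers. Its probe at 7910 was dim, and 2 of 8 WT arrays gave no value. The relative log2 signal was -2.25, -1.64 and 0.15 in WT, -1.86, -1.08 and 0.40 in Smn1ΔSkm, and -1.98, -1.25 and -0.37 with AFS cells. Mice of the groups overlapped, and Smn1ΔSkm mouse 1, at -0.01, stood above mice 2 and 3, at -1.20 and -1.45. The difference between Smn1ΔSkm and WT was 0.61 (SE 0.43, adjusted p = 0.326), the only positive one among the members, and without Smn1ΔSkm mouse 1 it was 0.17.

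Sspn encodes sarcospan, a small protein with 4 membrane passes held by the sarcoglycans, and its signal followed the scan day. The 5 myofibers of the first day read 3.57 to 4.21, and the other 14 Smn1ΔSkm and treated myofibers 1.17 to 2.58, with WT between 2.13 and 2.83. No value of the 5 overlapped with the 14. Within Smn1ΔSkm mouse 1 the first-day mean was 3.86 beside 2.58 for its remaining myofiber, and within the first treated mouse it was 4.05 beside 1.66. Among the 13134 probes measured on all arrays, 5.27% had all 5 first-day myofibers above the 14 and 1.83% had them all below. Sspn was the only one of the 14 member probes separated in this way. The difference between Smn1ΔSkm and WT was -0.31 (SE 0.621, adjusted p = 0.7375), and without the first-day myofibers it was -0.63 (adjusted p = 0.2168). The first-day Smn1ΔSkm myofibers lay on 1 slide and read 3.57 to 4.01, and the first-day treated ones lay on another, at 3.89 and 4.21. No slide held myofibers of both days, and what else differed between the days was not tested.

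**Figure D2:**
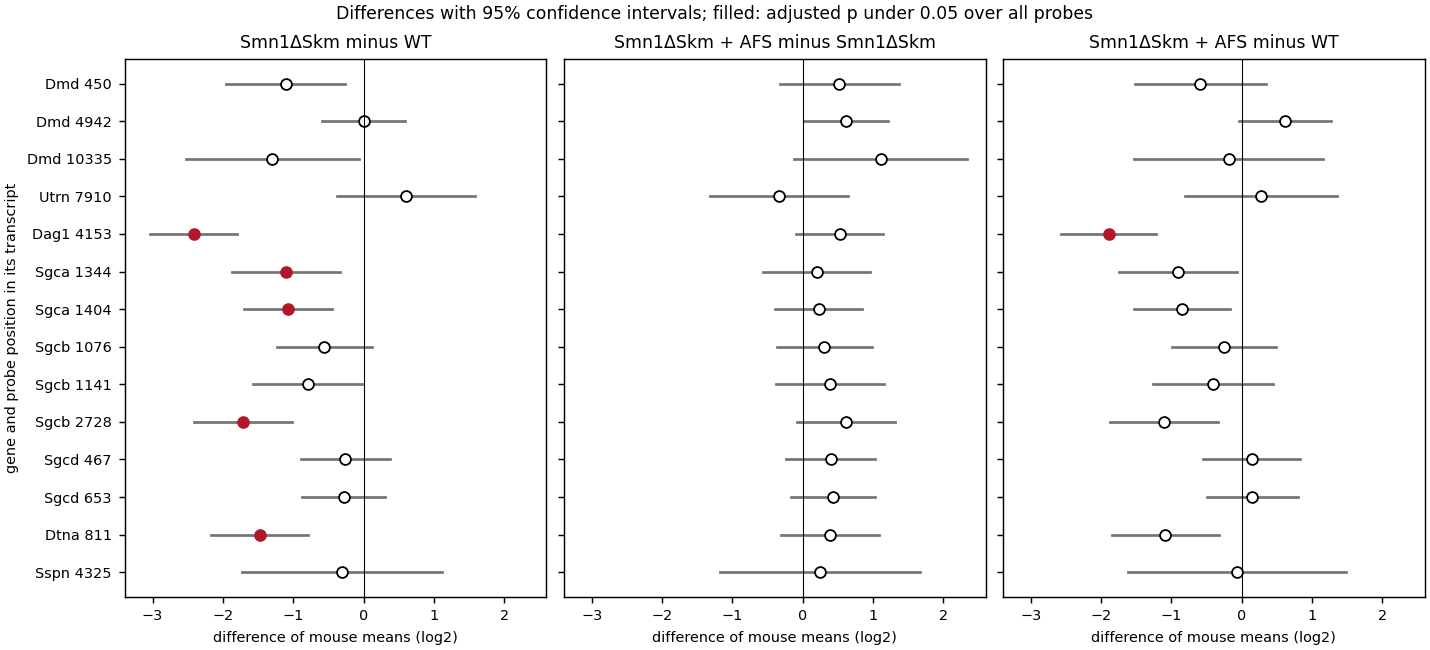
Differences of mouse means (horizontal axis, log2 units) for the 14 tested member probes in the 3 comparisons, with 95% confidence intervals; filled points passed an adjusted p under 0.05. The 5 filled points of Smn1ΔSkm against WT all lie below 0, none is filled for treated against untreated mice, and Dag1 at -1.89 is the only filled point for treated mice against WT.

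Treatment with AFS cells was followed by small positive differences at most members, none of which passed. Of the 14 probes 13 had a higher mean and 1, Utrn, a lower mean in treated than in untreated Smn1ΔSkm mice, with a median difference of 0.39 on the log2 scale beside 0.06 over all tested probes. None was called by limma, as was the case for 0% of all 22169 probes, of which 712 had an unadjusted p under 0.05. Among the members only Dmd 4942 had one, at 0.04373, with a difference of 0.62 (SE 0.26). In 7 of the 14 probes both treated mice lay above all 3 untreated mice, against 12.3% of all probes with a value in every mouse. Only 1 slide held both groups, with myofiber 4 of Smn1ΔSkm mouse 1 and myofiber 4 of the first treated mouse. All other treated and untreated myofibers lay on different slides, so slide and treatment cannot be told apart for them. Taking myofibers as replicates also gave 0 member calls, beside 26 (0.117%) of all probes. The untreated Smn1ΔSkm mice enter both this comparison and that with WT, so the differences are given side by side without a correlation.

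For the 5 probes called in Smn1ΔSkm against WT, the mean of the treated mice lay between those of the other groups, which was so for 80.8% of all 3132 probes called lower. The choice of these probes for a low untreated mean favors a positive difference here, and the median of treated minus untreated mice over the 3132 was 0.26. The differences of treated from untreated mice were 0.53 at Dag1, 0.61 (95% interval -0.09 to 1.31) at Sgcb 2728, 0.39 (95% interval -0.30 to 1.08) at Dtna, 0.23 (95% interval -0.40 to 0.85) at Sgca 1404 and 0.20 (95% interval -0.56 to 0.96) at Sgca 1344, in log2 units. Each of these intervals, and that of Dag1 (-0.09 to 1.15), includes 0 and also values well above the difference found. The treated mice differed from WT by -1.10 at Sgcb 2728 (adjusted p = 0.07778), -0.85 at Sgca 1404 (adjusted p = 0.1072) and -0.91 at Sgca 1344 (adjusted p = 0.1441).

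**Figure D3:**
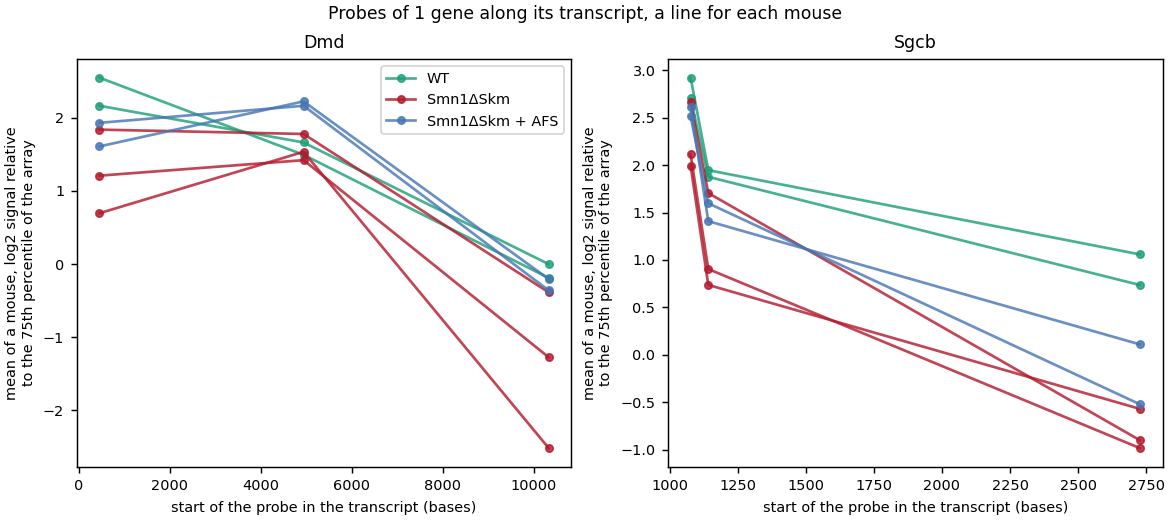
Mouse means of the relative log2 signal (vertical axis, log2 units) at each tested probe of Dmd and Sgcb against the start of the probe in its transcript (horizontal axis, bases), 1 line a mouse. At Dmd 4942 the WT and Smn1ΔSkm lines meet, with group means of 1.577 in both, and the treated mice lie above them at 2.22 and 2.16. At 450 and 10335 the Smn1ΔSkm lines lie below WT. At 10335 the Smn1ΔSkm mice read -2.52, -1.28 and -0.39, the treated mice -0.21 and -0.36, and the WT mice -0.0025 and -0.19. At Sgcb the WT and Smn1ΔSkm lines part most at 2728.

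Whether probes of 1 gene changed unequally was asked in 8 pairs of tested probes, by taking 1 probe minus the other in every mouse and comparing these values between groups. The reference was the probe with the highest mean over all arrays, which at Dmd was 4942 although 450 read higher in both WT mice, and pairs without the reference were added after seeing the data. In Smn1ΔSkm against WT, Dmd 450 changed by -1.11 relative to Dmd 4942 (exact permutation test over mice, two-sided p = 0.1, the smallest that 2 mice against 3 allow), and the mice did not overlap. Dmd 10335 changed by -1.30 relative to Dmd 4942 (exact permutation p = 0.2) and Sgcb 2728 by -1.16 relative to Sgcb 1076 (exact permutation p = 0.2). Dmd 10335 relative to Dmd 450 changed by -0.19 (exact permutation p = 0.8), and Sgcb 2728 relative to Sgcb 1141 by -0.92 (exact permutation p = 0.2). These tests cannot reach 0.05 at this number of mice. The Sgca pair differed by 0.03 and the Sgcd pair by -0.03 (exact permutation p = 0.9 for each), and Sgcb 1141 by -0.24 from its neighbor at 1076 (exact permutation p = 0.3).

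Position along the transcript moved with genotype over the whole array. For 1178 transcripts with tested probes at least 500 bases apart, the change at the distal probe minus that at the proximal probe had a median of -0.29 in Smn1ΔSkm against WT, and it was below 0 in 61.9% of transcripts and below -1 in 21.7%. For treated mice against WT the median was -0.25, and for treated against untreated mice it was 0.04. Sgcb 2728 and Dmd 10335 are distal probes, the 4153 and 4325 positions of Dag1 and Sspn are far from the transcript start, and Dmd 450 is proximal. The part of transcript position in the member values was not tested, and genotype and slide cannot be told apart in it.

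The spread between myofibers of a mouse differed among members. The within-mouse SD was 0.286 log2 units at Sgca 1344, 0.336 at Dag1, 0.632 at Sspn and 0.725 at Dmd 4942, beside a median of 0.447 over all tested probes. Of all probes, 90.4% had a smaller within-mouse SD than Dmd 4942 and 9.38% a smaller one than Sgca 1344. At Dmd 4942 the mice of a group were close, with an SD between mice of 0.128, while fibers lay far apart in some mice. They ran from -0.22 to 3.16 in Smn1ΔSkm mouse 1 and from 1.31 to 3.66 in the first treated mouse. These mice hold the first-day myofibers, and the part of scan day was not tested. Elsewhere fibers ran from 1.52 to 1.77 and 1.08 to 1.86 in WT mice 1 and 2. Smn1ΔSkm mice 2 and 3 had 0.985 to 1.67 and 1.47 to 2.04, and the second treated mouse 1.97 to 2.31.

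Within mice, several members varied together from fiber to fiber. After subtracting the mean of each mouse, the Pearson r over 27 myofibers was 0.91 for Sgcb 1076 with Sgcb 1141, 0.72 for the Sgcd pair, 0.72 for Sgca 1404 with Dtna and 0.71 for Dag1 with Sgca 1404. Dmd 4942 went the other way, with r of -0.66 to Sgca 1404 and -0.58 to Dtna, and of 0.60 and 0.65 to Sgcb 1076 and 1141. The other Sgca probe, at 1344, had r of only 0.16 to Dtna, 0.49 to Dag1 and -0.05 to Dmd 4942. The r between the Sgca probes was 0.47. Dmd 4942 had an r of -0.15 to Dmd 450. Sspn had an r of -0.64 to Dtna and 0.61 to Sgcb 1076. These values describe 27 myofibers that share mice, slides and scan days, so the first-day myofibers enter several of them, and no test was made.

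**Figure D4:**
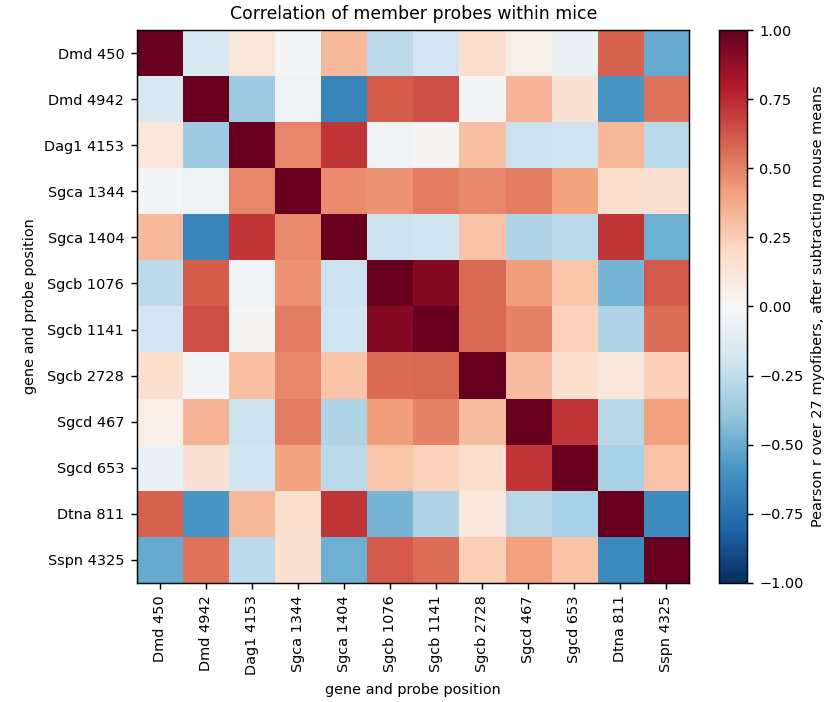
Pearson r between member probes (both axes list gene and probe position) over the myofibers after subtraction of mouse means; red is positive and blue negative. Sgca 1404 is positive with Dag1 4153 (0.71) and with Dtna 811 (0.72), while Dag1 with Dtna has an r of 0.33. Dmd 4942 is negative with Sgca 1404 at -0.66. Sgca 1344 has an r of 0.49 to Dag1, 0.16 to Dtna and -0.05 to Dmd 4942.

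Over all 27 myofibers and 13134 probes measured on each of them, the genes whose signal was most like that of Dmd 4942 were Ttc19 (r = 0.80), 8030462N17Rik (r = 0.80) and Alkbh5 (r = 0.78). For Sgcb 1076 they were Tagap1 (r = 0.85), Srl (r = 0.84) and Csl (r = 0.83). These are the highest of many correlations and carry no test.

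The other genes of the pathway were taken from 7 lists. They name 76 genes, the array carries 74 and 58 could be tested, with 1 probe a gene. In Smn1ΔSkm against WT 15 of the 58 were called, 3 higher and 12 lower, which is 25.9% beside 22% of all 16648 genes. The median difference was -0.45 in log2 units, beside -0.11 over all genes. Against WT the treated mice had 4 called genes, 6.9% beside 7.77% of all genes, and treated against untreated mice had 0 by limma, as for 0% of all genes.

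Among the other sarcoglycans, Sgce (ε-sarcoglycan, which is found widely outside muscle) rose by 1.29 (SE 0.347, adjusted p = 0.03499). Among the sarcoglycans described here, α and β probes were thus called lower and ε higher, while δ did not pass, and differences between the subunits were not tested. Of 4 tested cytoplasmic partners 0 were called by limma, and 0 had an unadjusted p under 0.05. Among them Nos1, which encodes the neuronal nitric oxide synthase held at the membrane by the complex, had means of 3.48 in Smn1ΔSkm and 4.49 in WT (adjusted p = 0.221). The second tested Nos1 probe did not share that direction.

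Enzymes that build the laminin-binding sugar of dystroglycan had 3 called genes of 11 tested, all lower, which is 27.3% beside 22% of all genes. The list had 3 higher and 8 lower means, and a median difference of -0.46 in log2 units. Large, whose product extends the matriglycan polymer, fell by 1.70 (SE 0.275, adjusted p = 0.00996), Pomgnt1, which extends the O-mannose core, by 1.69 (SE 0.295, adjusted p = 0.01205), and Dolk, which makes the dolichol phosphate used for the mannose donor, by 1.53 (SE 0.326, adjusted p = 0.0192). In treated mice Large and Pomgnt1 were also called lower than in WT, with differences of -1.20 (adjusted p = 0.04891) and -1.64 (adjusted p = 0.02952).

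Of 6 tested extracellular ligands 2 were called (33.3%, beside 22% of all genes), the list having a median difference of -0.36. The laminin chains Lamc1 and Lamb2 fell by 2.14 (SE 0.321, adjusted p = 0.008703) and 1.58 (SE 0.4, adjusted p = 0.02931), and Lamc1 was called lower in treated mice too, with a difference of -1.97 (adjusted p = 0.02364). Lama2, the α2 chain that binds dystroglycan, had means of 1.14 in Smn1ΔSkm and 1.52 in WT (adjusted p = 0.3087). Fibroblasts also make laminins, and the summed linear signal of the 7 fibroblast markers was 0.844 to 123 in WT, 1.63 to 34.9 in Smn1ΔSkm and 1.97 to 22.9 in treated myofibers, with 0 of 2 tested markers called. Their part in the laminin values was not tested.

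**Figure D5:**
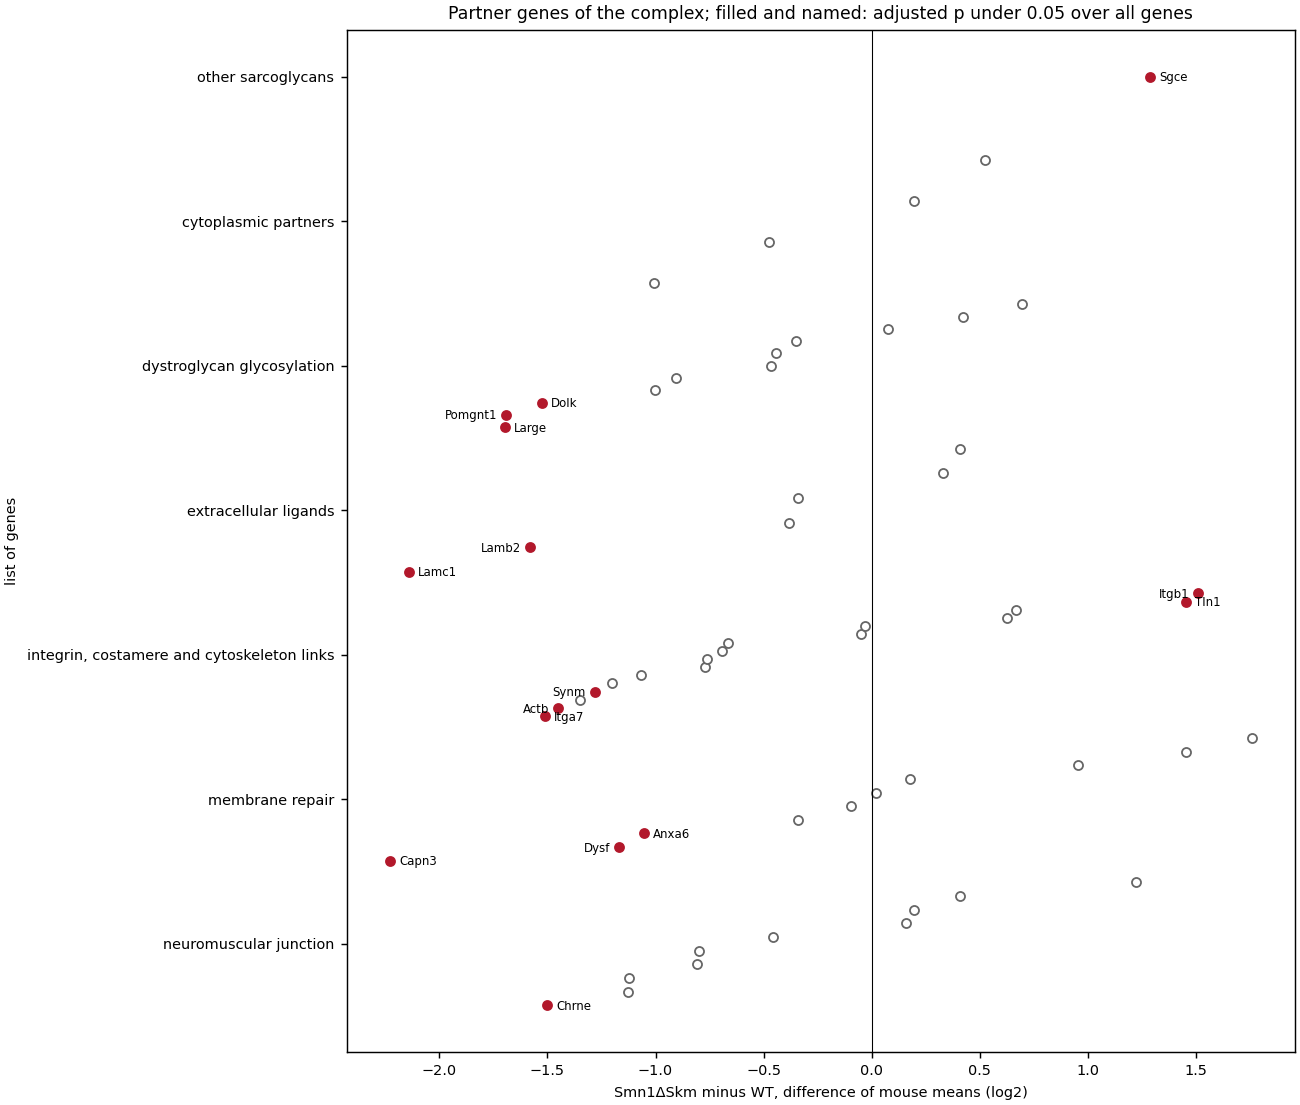
Difference of Smn1ΔSkm from WT (horizontal axis, log2 units) for the 58 tested partner genes, a point each, grouped by list on the vertical axis, with called genes filled and named. The called genes run from Capn3 at -2.23 to Itgb1 at 1.51, and 12 of the 15 lie below 0.

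The integrin and costamere list held 5 called genes of 16 tested (31.2%, beside 22%), in both directions, with a median difference of -0.73. Itgb1 and Tln1, which encode integrin β1 and talin 1, rose by 1.51 (SE 0.43, adjusted p = 0.04058) and 1.45 (SE 0.287, adjusted p = 0.01561), while Itga7, the α7 chain that pairs with β1 as a laminin receptor of fibers, fell by 1.51 (SE 0.267, adjusted p = 0.01227). Tln1 was called higher in treated mice as well, by 1.603 (adjusted p = 0.02952), but its second tested probe did not share the direction in Smn1ΔSkm. Actb and Synm (β-actin and the intermediate filament protein synemin) fell by 1.45 (adjusted p = 0.02835) and 1.28 (adjusted p = 0.03139), and the second Actb probe did not share that direction.

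For membrane repair, 3 of 10 tested genes were called (30%, beside 22% of all genes), all lower. The list was split, with 5 higher and 5 lower means and a median difference of -0.0376, beside -0.11 over all genes. Capn3, the calpain mutated in a limb-girdle dystrophy, fell by 2.23 (SE 0.565, adjusted p = 0.02943), Dysf, which encodes the repair protein dysferlin, by 1.17 (SE 0.32, adjusted p = 0.0364) and Anxa6, an annexin of the repair cap, by 1.06 (SE 0.26, adjusted p = 0.02689). At the neuromuscular junction 1 of 10 tested genes was called (10%), Chrne, the adult ε subunit of the acetylcholine receptor, which fell by 1.501 (SE 0.355, adjusted p = 0.02432).

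The promoters of 7 of the 8 members matched by symbol in the RefSeq promoter table (GRCm38.p6), Dtna being the exception. The 250 bases before the annotated start were searched on both strands for the E-box CAGCTG, bound by myogenic factors, for the MEF2-like CTANNNNTAG and for the GC box GGGCGG. These are held by 13%, 3.2% and 32.7% of 32851 promoters of that length. None of the matched members held the E-box or the MEF2-like motif in this window, so matches of different motifs did not overlap. GC boxes were found at Dag1, with 3 matches, and at 1 of the 2 annotated starts of Dmd, with 3. Sgcb and Sgcd had 1 each, and the windows of Utrn, Sgca and Sspn none. Whether the annotated starts are those used in myofibers was not established here, so an absent match says nothing of other starts of a gene. The Dmd window with matches, chrX:85048045-85048294, lies downstream on the plus strand of the one without, chrX:82948620-82948869. Which of them belongs to the transcript of the tested Dmd probes was not established here. Dag1 and Sgca, both called lower in Smn1ΔSkm, had 3 matches and none, and they are shown in lower case with GC boxes in capitals, on the minus strand at chr9:108263959-108264208 and chr11:94976328-94976577.
Dag1: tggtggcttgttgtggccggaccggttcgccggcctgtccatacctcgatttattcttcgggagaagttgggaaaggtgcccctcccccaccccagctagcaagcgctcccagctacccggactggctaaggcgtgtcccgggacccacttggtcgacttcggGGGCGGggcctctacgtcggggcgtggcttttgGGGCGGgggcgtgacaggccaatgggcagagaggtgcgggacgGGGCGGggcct
Sgca: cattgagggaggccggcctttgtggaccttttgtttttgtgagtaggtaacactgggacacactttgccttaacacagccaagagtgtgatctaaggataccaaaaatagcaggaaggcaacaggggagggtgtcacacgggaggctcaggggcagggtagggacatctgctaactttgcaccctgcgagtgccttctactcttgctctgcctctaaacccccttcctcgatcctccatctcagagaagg
A match describes letters in this window and no binding was measured.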

How the data were processed

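Single myofibers had been lysed and their RNA amplified over 18 cycles, labelled with Cy3 and hybridised to Agilent 8x60K mouse arrays by the authors, and intensities were extracted with Agilent Feature Extraction 10.7.3.1. The deposited intensity values (the processed signal) were used: log2 of the signal minus the log2 of the 75th percentile of the array. As in the study's methods, spots not found or not well above background had no value, repeated spots were averaged, and a probe was tested if at least 75% of the 27 arrays (21 or more) gave a value. Uneven spots were dropped here as well. No member spot was saturated or uneven (0 of 540). Per the labels, myofibers were grouped by mouse. Mouse means entered 1 model of 3 groups in limma 3.58.1 (R 4.3.3), with Benjamini-Hochberg adjustment over all probes, where the study took myofibers as replicates. For partner genes the brightest tested probe stood for each gene. The authors' deposited value table, normalized intensity values with a median per array of 57.4 to 177 whose centring is not stated, served as an alternative (r with the scanner signal at least 0.9982). Steps were tested on simulated data.

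The members, the gene lists and the alternatives were chosen with earlier results of these data known. The text names every member, every called list gene up to 5 a list, and the 3 genes most like Dmd and Sgcb. Nos1 and Lama2 were named after their values were seen. Some genes of the lists are not reported here and stand in no count of partner genes. Mouse numbers were not taken to pair the groups. The differences between mice 1 and 2 correlated at 0.119 (WT with Smn1ΔSkm), 0.268 (treated with untreated) and -0.0537 (treated with WT). These values cannot settle pairing, because mouse 1 alone holds first-day myofibers in both the treated and the untreated group. The number of mice (2, 3 and 2) limits the precision. Probe coordinates are those of the files (mm9), and exon annotation of that build was not used here.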

Additional observations from a re-analysis of the deposited data

Results flagged for a closer look

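The highest and lowest myofiber were compared with the nearest other in 28 groups of 4 to 10 myofibers (WT and treated myofibers of the 14 probes). In 6 groups 1 of them stood apart by more than the Dixon 95% limit. That limit assumes independent values of 1 population. Each group pools myofibers of 2 mice, and the same myofibers return at related probes, so the 6 are not set against a chance rate. Myofiber 3 of the first Smn1ΔSkm + AFS mouse, scanned on the first day, accounts for 4 of the 6. It read 3.66 at Dmd 4942 (nearest 2.31), 2.75 at Sgcb 1141 (nearest 1.68) and 3.73 at Sgcd 467 (nearest 2.96), the highest of its group, and 2.74 at Dag1 (nearest 3.39), the lowest. In WT, mouse 2 myofiber 3 read 0.15 at Utrn 7910 (nearest -1.42), and mouse 2 myofiber 4 read 5.02 at Sgca 1344 (nearest 5.60). Values are relative log2 signals, and their causes were not tested.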

How the results depend on the processing

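Of the 14 member probes 5 (35.7%) were called in Smn1ΔSkm against WT, beside 21.5% of all probes. The count was 3 (21.4%) with quantile normalization, beside 15.9%. It was also 3 with each array centred on its median over the fully measured probes, beside 18%. The same count came with normexp correction, beside 15.5%, and with the authors' value table, beside 15.7%. With the brightest probe for each gene, 3 of 8 genes (37.5%) were called, beside 22% of all genes. Member calls were 9 (64.3%) with myofibers as replicates, beside 54.1% of all probes. They were 8 (57.1%) without Smn1ΔSkm myofibers 1 to 3 of mouse 1, beside 28.2%. Without the 5 first-day myofibers, a setting chosen after seeing the data, they were 8 as well, beside 29.7%. Leaving out each mouse gave 0 to 8. Over all probes, calls ran from 0 to 9711 without a mouse and were 11996 with myofibers as replicates, 7963 with the mouse and 2564 with the slide as a random block, and 7026 without a filter, beside 4757. For treated mice against WT the member count of 1 became 5 (35.7%) with myofibers as replicates, beside 41.3% of all probes. It was 5 with the mouse as a random block, beside 21.2%. At an adjusted p under 0.001 with myofibers as replicates it was 3 (21.4% beside 14.1%). Without a filter it was 2 of 18 probes (11.1%), beside 4.96%. Without Smn1ΔSkm mouse 1 it was 5, beside 29.3%, and without mouse 2 or 3 it was 1, beside 3.24% and 2.73%. Fits without a WT or treated mouse left 1 mouse in that group, and their counts for this comparison are not given. The partner counts that follow have no share over all genes for each setting, and the calls over all probes changed too. Partner genes called, 15 in the main setting, were 33 with myofibers as replicates, and 0 to 28 without a mouse. Treated against untreated mice gave 0 member calls in every setting run.

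Signs turned only at differences that were not called. Dmd 4942 in Smn1ΔSkm against WT became 0.15 (quantile), 0.22 (centred), 0.14 (normexp) and 0.13 (authors' table), and -0.101 to 0.0842 without a mouse. Sspn against WT became 0.15 with the slide block and 0.0818 with the replicate block, with -1.003 to 0.0818 without a mouse. Sspn in treated against untreated mice became -0.10 (slide block), -0.15 (replicate block) and -0.0352 (within scan day 2, and without the first-day myofibers), with -0.21 to 0.93 without a mouse. Sspn in treated mice against WT became 0.0481 (quantile), 0.0461 (authors' table), 0.0476 (slide block) and 0.0586 (centred), with -0.52 to 0.38 without a mouse. Sgca 1344 in treated against untreated mice became -0.0484 with normexp and ran from -0.0625 to 0.43 without a mouse, Utrn from -0.61 to 0.10, and Sgcd 467 in treated mice against WT from -0.0543 to 0.33. The change at Sgca 1404 minus that at 1344 became -0.0268 with normexp. The causes were not tested.

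The mouse number as a replicate block gave 5 called member probes for Smn1ΔSkm against WT, 0 for treated against untreated mice, 1 for treated mice against WT, and 16 partner genes, while the calls over all probes fell to 3086. Within scan day 1 each group had 1 mouse, so only values were obtained. Where a fit left 1 mouse in an arm, it was assumed to vary like the other groups.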
